A study of Mus musculus with 7 samples.

Results

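The ubiquitin-specific peptidases (USPs) are the largest family of deubiquitinases, the enzymes that take ubiquitin off proteins. They were described here in mouse left lung with and without Gata5. The members were all genes whose platform symbol is Usp followed by a number and at most 1 letter, and each gene stands here by whichever of its probe sets was brightest on average over the 7 arrays. This gave 48 genes of 18193 on the array, carried by 122 probe sets. The family was singled out because Usp12 was lower in KO lungs with little spread, so the KO against WT values of the members are a description and carry no test of their own.

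RNA from the left lung was measured in 3 mice lacking Gata5 (KO) and in 4 wild-type controls (WT), all 8 weeks old, on 1 Affymetrix mouse genome array per animal. The labels give the genotype as Gata5 KO, with neither the deleted exons, the strain, the sex nor any treatment, and call the samples of a group biological replicates. The deletion is given without a driver or a cell type, and the measurement is of whole lung, so fewer cells of a type and less RNA per cell cannot be told apart in any value below.

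Gata5 itself, a zinc-finger transcription factor, gave a dim signal at probe set 1450126_at, 4.95 ± 0.22 (SD) on the 3 KO arrays and 5.54 ± 0.22 (SD) on the 4 WT arrays, with KO below WT throughout (limma adjusted p = 0.0336 over all probe sets). The second Gata5 probe set, 1450125_at, read 4.68 ± 0.19 in KO and 4.94 ± 0.06 in WT. Whether either probe set lies within the deletion could not be checked here. The median log2 level of an array lay between 6.10 and 6.15. The labelled tissue was borne out by its markers: Sftpc, the surfactant protein of type 2 cells, read 14.00 to 14.20, and Scgb1a1, the club cell secretoglobin, 14.45 to 14.61. The heart muscle gene Myh6 was bright too, at 11.86 to 12.66, with overlap between the groups. WT replicate 4 stood apart in sex-linked RNA, with Xist at 12.72 against 6.31 to 6.48 on the other arrays (1436936_s_at) and Eif2s3y, a gene of the Y chromosome, at 3.71 where the others read 9.30 to 9.68. The beta-actin 3′ control probe set exceeded the 5′ one by 4.74 to 5.39 log2 units on KO arrays and 3.88 to 4.31 on WT arrays, and the Gapdh 3′ control exceeded the middle one by 3.85 to 4.31 and 3.33 to 3.68, so both indices of RNA or labelling quality moved with genotype. Their part in the differences below was not tested, except that each was used as a covariate.

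Ubiquitin is joined to proteins by a cascade of activating, conjugating and ligating enzymes, and deubiquitinases reverse the reaction, trim chains and free ubiquitin for new use. USPs share a cysteine protease fold and differ in the domains that place them at the proteasome, on endosomes, on chromatin or on mitochondria. In lung, as in other tissues, receptors such as the epidermal growth factor receptor and the TGF-beta receptor are kept at the cell surface or sent to the lysosome according to how much ubiquitin they carry.

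Usp12 carries the largest difference of the family. Its annotated start lies on chromosome 5, and the RefSeq promoter window (GRCm38.p6, chr5:146794907-146795206, minus strand, 250 bases before to 50 after the start) is shown with the windows of Usp31 and Usp4, the other members lower in KO for which a window was held. Each is printed 5′ to 3′ along the gene's strand, and capitals mark CG dinucleotides, the sites of CpG methylation. The Usp31 window is chr7:121707393-121707692 on the minus strand, and the Usp4 window is chr9:108347581-108347880 on the plus strand.
Usp12: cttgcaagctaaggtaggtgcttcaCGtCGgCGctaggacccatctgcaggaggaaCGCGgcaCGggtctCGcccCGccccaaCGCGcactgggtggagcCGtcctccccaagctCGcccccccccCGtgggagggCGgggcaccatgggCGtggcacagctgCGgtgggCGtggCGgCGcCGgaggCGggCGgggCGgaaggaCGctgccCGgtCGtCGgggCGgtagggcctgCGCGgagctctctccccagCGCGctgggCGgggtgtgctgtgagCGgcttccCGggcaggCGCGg
Usp31: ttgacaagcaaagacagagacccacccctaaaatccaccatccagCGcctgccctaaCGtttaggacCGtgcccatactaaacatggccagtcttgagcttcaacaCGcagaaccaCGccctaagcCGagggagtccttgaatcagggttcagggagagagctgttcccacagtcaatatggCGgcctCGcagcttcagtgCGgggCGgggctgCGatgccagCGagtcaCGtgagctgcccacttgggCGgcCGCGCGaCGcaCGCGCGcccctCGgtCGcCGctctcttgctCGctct
Usp4: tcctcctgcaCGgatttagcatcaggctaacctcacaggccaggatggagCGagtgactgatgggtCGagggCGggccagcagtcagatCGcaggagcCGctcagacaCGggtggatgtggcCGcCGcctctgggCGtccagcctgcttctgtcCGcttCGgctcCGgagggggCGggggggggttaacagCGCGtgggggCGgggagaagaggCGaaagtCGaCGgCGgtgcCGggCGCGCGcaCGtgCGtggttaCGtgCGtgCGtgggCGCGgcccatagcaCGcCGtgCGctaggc
The Usp12 window holds 37 CG dinucleotides, that of Usp31 25 and that of Usp4 35.

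Usp12 is 1 of 3 paralogs, with Usp1 and Usp46, that need the WD-repeat protein Wdr48 (UAF1) for full activity, and Wdr20 raises the activity of Usp12 and Usp46 further. Its log2 level at 1434483_at was 6.19, 6.09 and 5.97 on the KO arrays and 7.03, 7.02, 6.87 and 6.84 on the WT arrays. Every KO array lay below every WT array. The means were 6.08 ± 0.11 (SD, n = 3) and 6.94 ± 0.10 (SD, n = 4), a difference of -0.86 (SE 0.08), or 1.81-fold lower in KO. These values chose the family and support nothing further. The other Usp12 probe sets, 1425805_a_at and 1427478_at, were dim on all arrays and differed by 0.09 and 0.07 with overlapping groups.

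Usp1, which deubiquitinates Fancd2 and Pcna in DNA repair, stood close to its WT level. Its values at 1451080_at were 10.61, 10.66 and 10.42 in KO and 10.65, 10.67, 10.67 and 10.72 in WT. The groups overlapped and the difference was -0.11, with a 95% interval of -0.28 to 0.05. A second bright probe set of Usp1, 1423674_at, differed by -0.37 with groups that overlapped by a tied value alone, and the dim 1423675_at by -0.10.

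Usp46, the closest paralog of Usp12, read 10.28, 10.39 and 10.51 in KO and 10.37, 10.47, 10.61 and 10.47 in WT at 1436518_at. The groups overlapped throughout, and the difference of -0.09 had a 95% interval of -0.27 to 0.10. Its other probe set, 1435325_at, differed by 0.04. The differences between the 3 paralogs were not tested, since Usp12 was chosen for its value.

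Of the 2 WD-repeat cofactors, neither passed the limma threshold at its brightest probe set, while a second probe set of Wdr48 did. Wdr48 differed by -0.11 (adjusted p = 0.279) with overlapping groups. At 1426723_at it differed by -0.42, with KO arrays from 7.93 to 8.12 and WT arrays from 8.28 to 8.58 (adjusted p = 0.0243 over all probe sets), and at its further probe sets it differed by -0.03 and, at a dim one, 0.14. Wdr20 differed by 0.20 (adjusted p = 0.149), with overlap by a tied value alone, and by 0.07 and 0.24 at its further probe sets, the second of them dim.

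**Figure D1:**
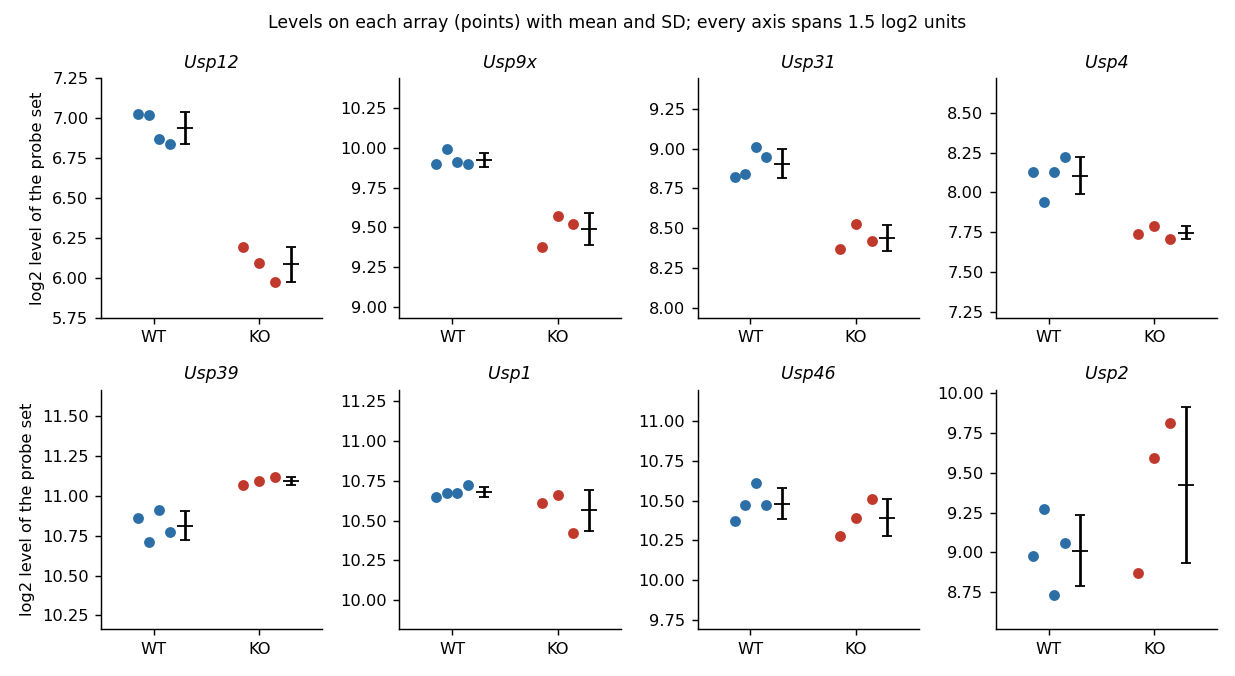
Log2 level of 8 USP genes on each of the 7 arrays, with WT arrays on the left and KO arrays on the right of each panel, group means with SD bars, and each vertical axis spanning the same 1.5 log2 units. The Usp12 groups lie farthest apart (6.08 against 6.94), the KO arrays of Usp9x, Usp31 and Usp4 lie below the WT arrays, those of Usp39 above them, and the groups of Usp1, Usp46 and Usp2 overlap.

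Over the family, most members stood near their WT level. Of the 48 genes, 43 passed the filter on level, and Usp26, Usp29, Usp44, Usp50 and Usp9y did not and were not tested. In the limma fit over 13285 genes, 4 members were below the adjusted p threshold of 0.05 and lower in KO (Usp12, Usp9x, Usp31 and Usp4), 1 was higher (Usp39) and 38 did not pass. The members' share was 11.6% against 15.6% of all genes tested, 9.30% against 10.0% for lower and 2.33% against 5.56% for higher. Since the contrast chose the family, nothing is read from these shares. The KO arrays were entirely below the WT arrays for 9 members and entirely above them for 6, together 34.9% of those tested against 29.6% of all genes, which for all genes divides into 17.5% below and 12.1% above.

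The median log2 difference was -0.02 over all 48 members against 0.04 over all genes, and -0.04 over the 43 tested against -0.003 over the genes tested. The median size of a difference was 0.11 in the members and 0.14 in all genes tested. Usp12 alone passed 1.5-fold, and 30 members differed by less than 0.2. The split of all calls depended on the scaling: 35.7% of the called genes were higher in KO in the deposited values, 57.1% after a further quantile normalization, 46.8% after cyclic loess and 24.6% after median centring. The members called were then 4 lower with 4 higher, 4 with 2 and 4 with 1.

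**Figure D2:**
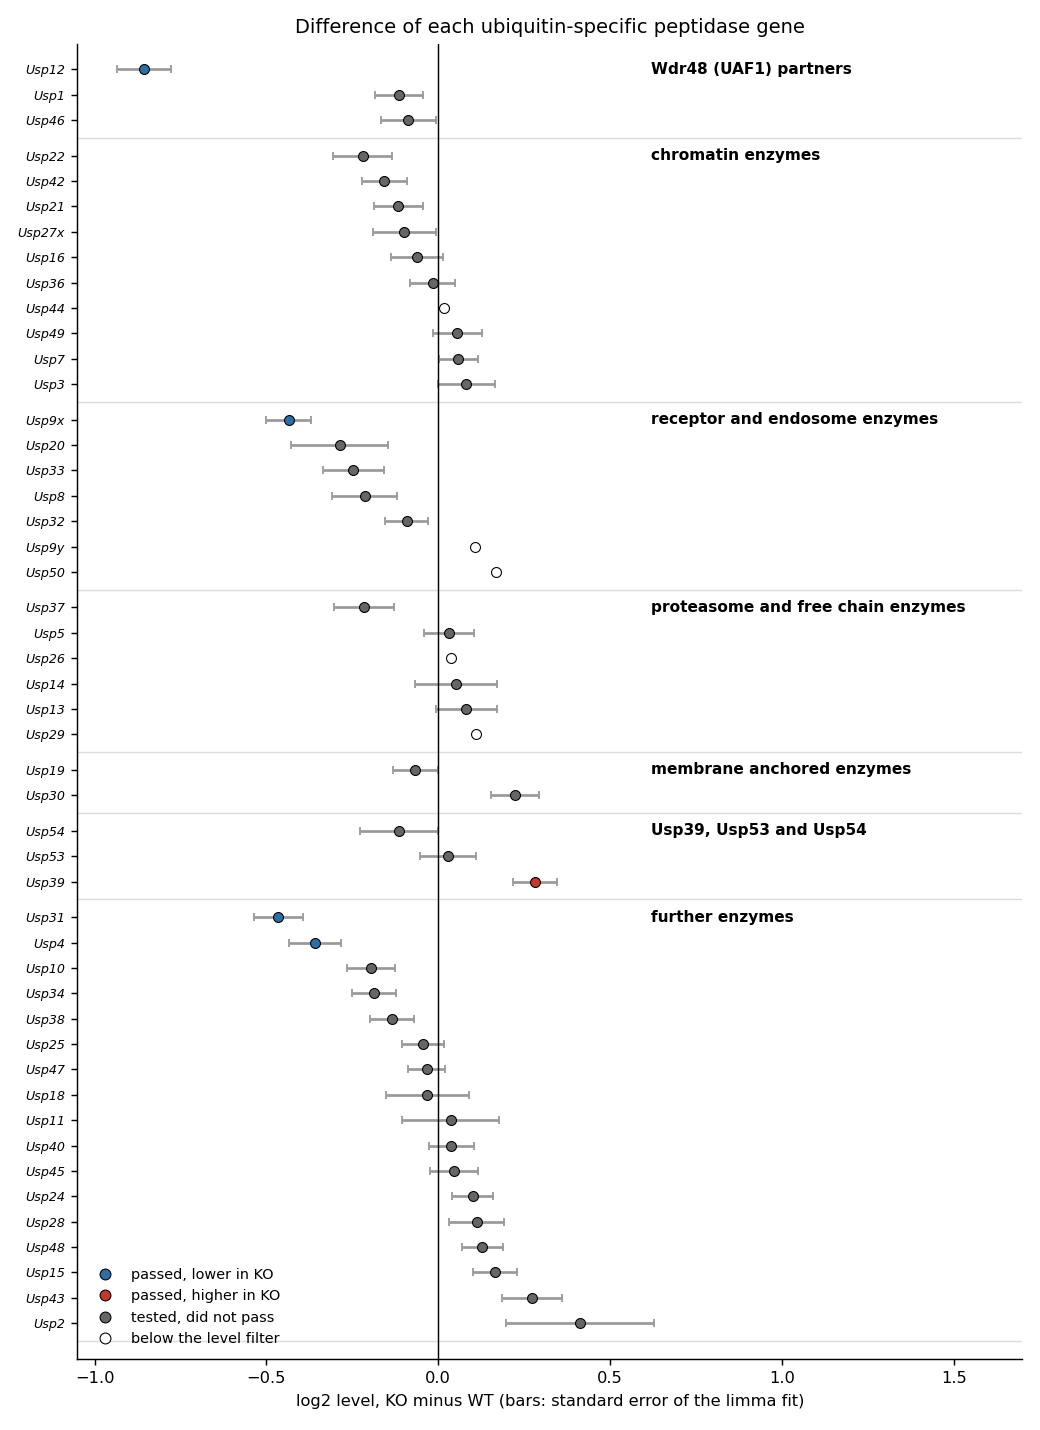
Log2 difference, KO minus WT, of all 48 USP genes, with standard errors from the limma fit as bars. Genes are grouped by broad role, and Usp37 was listed with the proteasome and free chain group without a known role there. Blue and red points passed the adjusted p threshold lower and higher, grey points did not, and white points lay below the level filter. Usp12 stands at -0.86 at the low end, Usp2 at 0.41 with a wide bar at the high end, and most members lie within 0.2 of 0.

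Of 7 enzymes that act on receptors and endosomes, 5 were tested. All 5 were lower on average in KO at the probe set used, with differences from -0.44 to -0.09, and 1 passed the threshold. Of the 43 members tested, 25 differed below 0, and 10.0% of all genes tested were called lower. Whether this group differs from the other members was not tested. Usp9x, a large X-linked enzyme that protects many signalling and trafficking proteins from breakdown, read 9.38, 9.57 and 9.52 in KO and 9.90, 9.99, 9.91 and 9.90 in WT at 1420922_at. No KO array reached a WT array. The difference was -0.44 (SE 0.07), or 1.35-fold lower.

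The other 3 Usp9x probe sets above the level filter pointed the same way. They differed by -0.29 at 1428194_at, -0.27 at 1450039_at and -0.09 at 1428193_at, and only the first also passed when every probe set was tested. The dim 1450038_s_at, 1450037_at and 1420923_at differed by -0.07, -0.07 and 0.05. The Y-linked copy Usp9y was dim on all arrays, at 4.17, 4.25 and 4.22 in KO and 4.08, 4.14, 4.10 and 4.10 in WT, the last from the array with high Xist, so no level of it was measured here.

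Usp33 and Usp20, related enzymes that recycle the beta-2 adrenergic receptor, were lower on average and did not pass. Usp33 read 9.51, 9.70 and 9.56 in KO and 9.72, 9.72, 9.97 and 9.94 in WT, a difference of -0.25 (SE 0.09) without overlap, from its only probe set. Usp20 read 5.53, 5.0 and 5.52 in KO and 5.65, 5.73, 5.42 and 5.75 in WT, a difference of -0.29 (SE 0.14) with overlap. KO replicate 2 was the low array, and without it the difference was -0.11. Usp20 lies just above the level filter, its further probe sets (-0.08, 0.06 and 0.13) are below it, and its sign turned to 0.32 with the beta-actin index and 0.25 with the Gapdh index as a covariate. Usp8, which deubiquitinates receptors on early endosomes together with Stam, differed by -0.21 with overlap. Usp32 differed by -0.09 at the probe set used and by 0.21 at its other bright probe set, 1459857_at, both with overlap by a tied value alone.

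Among the further enzymes of signalling, 2 of 17 passed, both lower, a share of 11.8% beside 10.0% of all genes called lower. Usp31, a little-studied member tied to NF-kappa-B signalling, read 8.37, 8.53 and 8.42 in KO and 8.82, 8.84, 9.01 and 8.95 in WT at 1434724_at. The groups were separate, with a difference of -0.47 (SE 0.07), or 1.38-fold lower. The other bright Usp31 probe set, 1431129_at, differed by 0.13 with overlap, and the dim 1442099_at and 1419828_at by 0.15 and 0.07.

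Usp4, which acts on the type I TGF-beta receptor and, with Sart3, on the spliceosome, read 7.74, 7.79 and 7.71 in KO and 8.13, 7.94, 8.13 and 8.22 in WT at 1450892_a_at. The KO arrays were tightly grouped below the WT arrays, and the difference was -0.36 (SE 0.08), or 1.28-fold lower. At its other probe set, 1442319_at, Usp4 differed by 0.01. The Usp4 call did not survive the removal of KO replicate 3 (-0.34), nor that of any 1 of the WT replicates numbered 1 (-0.35), 3 (-0.35) and 4 (-0.32). Its paralogs Usp15 and Usp11 differed by 0.17 and 0.04, with overlap in both, in Usp15 by a tied value alone.

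Usp2, a clock-controlled enzyme, had the largest difference upward and the widest spread. It read 8.87, 9.59 and 9.81 in KO and 8.98, 9.27, 8.73 and 9.06 in WT at 1417169_at, a difference of 0.41 (SE 0.22). KO replicate 1 lay among the WT arrays. Without it the difference was 0.69, and Usp2, not Usp39, was then the member called higher, while without KO replicate 3 the difference was 0.22. The second Usp2 probe set, 1417168_a_at, gave the same order among KO arrays, at 8.25, 9.18 and 9.35 against 8.63, 8.99, 8.44 and 8.69 in WT, and differed by 0.24.

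Usp43 read 7.53, 7.74 and 7.64 in KO and 7.36, 7.50, 7.41 and 7.19 in WT at 1424866_at, a difference of 0.27 (SE 0.09) with the KO arrays above the WT arrays but not past the threshold. Its dim probe set 1451514_at differed by -0.08. Usp18, which strips the interferon-induced modifier ISG15, differed by -0.03, and Usp10, a partner of the stress granule protein G3bp1, by -0.20. Both had overlap, in Usp10 by a tied value alone. The remaining members of this group lay between -0.19 for Usp34 and 0.13 for Usp48.

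Usp39 was the member called higher, at its brightest probe set only. It is a splicing factor of the tri-snRNP that has lost the catalytic residues of the family. At 1437007_x_at it read 11.07, 11.09 and 11.12 in KO and 10.86, 10.71, 10.91 and 10.77 in WT, so that every KO array exceeded every WT array. The difference was 0.28 (SE 0.07), or 1.22-fold higher, and its second probe set, 1460209_at, differed by -0.07. The Usp39 call did not survive the removal of KO replicate 1 (0.29) or 3 (0.27), nor that of any 1 of the WT replicates numbered 1 (0.30), 2 (0.25) and 4 (0.27). Usp53 and Usp54, long classed as without protease activity, differed by 0.03 and -0.11.

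Of the chromatin group, 0 of 9 tested passed the limma threshold, and the differences ran from -0.22 to 0.08. Under an unadjusted p of 0.05 were 2 of these 9, beside 14 of the 43 members tested and 4622 of all 13285 genes tested. Usp22, the deubiquitinase of the SAGA coactivator, was lowest at -0.22 (SE 0.09), with KO arrays from 9.03 to 9.26 and WT arrays from 9.29 to 9.55. Usp16 and Usp21, which act on histone H2A, differed by -0.06 and -0.12. Of the group listed under the proteasome and free chains, 0 of 4 tested passed in the limma fit, with 1, Usp37, under an unadjusted p of 0.05. Usp37 was listed with this group, although it is not known for a role at the proteasome or on free chains. Usp14, bound to the proteasome, differed by 0.05, Usp5 and Usp13, which recycle unanchored chains, by 0.03 and 0.08, and Usp37 by -0.22. Of the membrane anchored pair, Usp30, on the outer mitochondrial membrane, was higher by 0.22 at 1436009_at (8.35 to 8.53 in KO, 8.09 to 8.25 in WT) and by 0.24 at 1455598_at, both without overlap and neither past the threshold. Usp19, anchored in the endoplasmic reticulum, differed by -0.07 with overlap at the probe set used. Its other probe sets above the filter differed by 0.19 (1424656_s_at, without overlap), 0.16 and 0.02, none past the threshold.

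Probe sets of 1 gene often disagreed. Of 25 members with at least 2 probe sets above the level filter, 15 had differences of both signs and 10 of 1 sign, and the median range within a gene was 0.30 log2 units. When each of 27023 probe sets above the filter was tested on its own, an alternative added after the values were seen, 13 of the 88 USP probe sets were lower and 2 higher, 17.0% against 17.5% of all probe sets (11.8% lower and 5.65% higher). They belong to 11 members with a lower call and 2 with a higher one. No such count per gene was made over all genes, and a gene with more probe sets has more chances of a call, so nothing is read from it. For 7 members, Usp7, Usp8, Usp14, Usp15, Usp24, Usp34 and Usp48, the call came only from a probe set that the highest-mean rule had passed over, and the ones named here were chosen after their values were seen.

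Usp7, which stabilises Mdm2 and p53 and acts on chromatin, spread most, over 1.12 log2 units. The probe set used, 1419920_s_at, differed by 0.06. At 1454948_at it read 7.57, 7.01 and 7.16 in KO and 8.09, 8.07, 7.92 and 8.21 in WT (-0.83), and at 1434371_x_at 7.57, 7.28 and 7.34 against 8.09, 8.13, 7.93 and 8.18 (-0.69). At 1454949_at the order was turned, with 8.14, 8.31 and 8.16 in KO and 7.97, 7.96, 7.82 and 7.89 in WT (0.29). All 3 of these separated the groups, so the array gives no single direction for Usp7.

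Usp8 differed by -0.59 at 1422883_at, where KO read 7.53, 7.64 and 7.35 and WT 8.13, 8.06, 7.98 and 8.22, and both of its probe sets were lower in KO. Usp34, which acts on axin in Wnt signalling, differed by -0.62 at 1434393_at (5.76, 5.64 and 5.11 against 6.22, 6.28, 5.99 and 5.99) and by -0.19 at the probe set used. Usp48 (-0.48 at 1419277_at), Usp14 (-0.47 at 1416208_at), Usp15 (-0.43 at 1454036_a_at) and Usp24 (-0.34 at 1448014_s_at) were lower there and slightly higher, by 0.05 to 0.17, at the probe set used. Members whose bright probe sets all pointed one way included Usp30, Usp37 (-0.22 and -0.21) and Usp3, with 4 between 0.07 and 0.24.

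**Figure D3:**
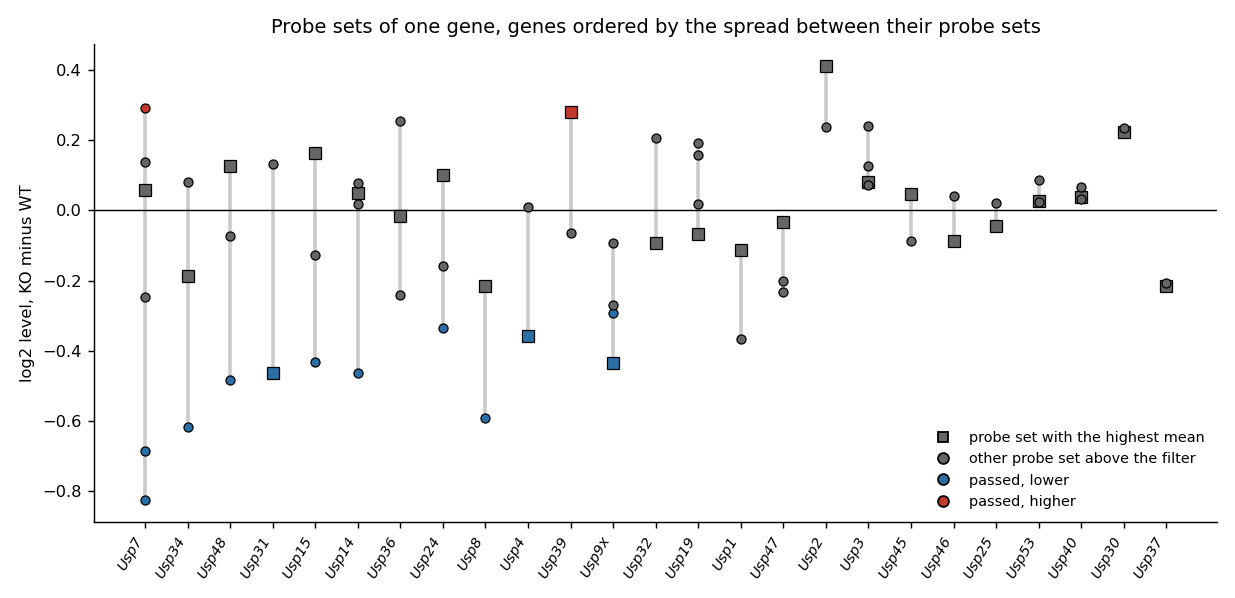
Log2 difference, KO minus WT, of each probe set above the level filter for the USP members with several probe sets, with a square for the probe set used, circles for the others, and blue or red where a probe set passed, lower or higher. Usp7 runs from -0.83 to 0.29, while the Usp30 and Usp37 points lie almost on each other.

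The calls of Usp9x and Usp31 held whichever array was left out, with differences of -0.48 to -0.38 and -0.51 to -0.43. That of Usp12 held too, at -0.91 to -0.80, but Usp12 was chosen for a fall with little spread, so this gives no support. With the beta-actin index as a covariate the Usp12 difference was -0.87 and with the Gapdh index -0.75, and no member passed in either fit. In these fits, in the same order, Usp9x differed by -0.51 and -0.51, Usp31 by -0.60 and -0.68, Usp4 by -0.47 and -0.47, and Usp39 by 0.17 and 0.22. The mean over all probe sets of a gene gave -0.17 for Usp9x, -0.17 for Usp4, -0.03 for Usp31 and 0.11 for Usp39, none of which passed, while Usp12 fell under the level filter. Under that mean the members that passed were Usp7, Usp8 and Usp34, lower, and Usp30, higher, with 0 shared with the 5 calls above.

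**Figure D4:**
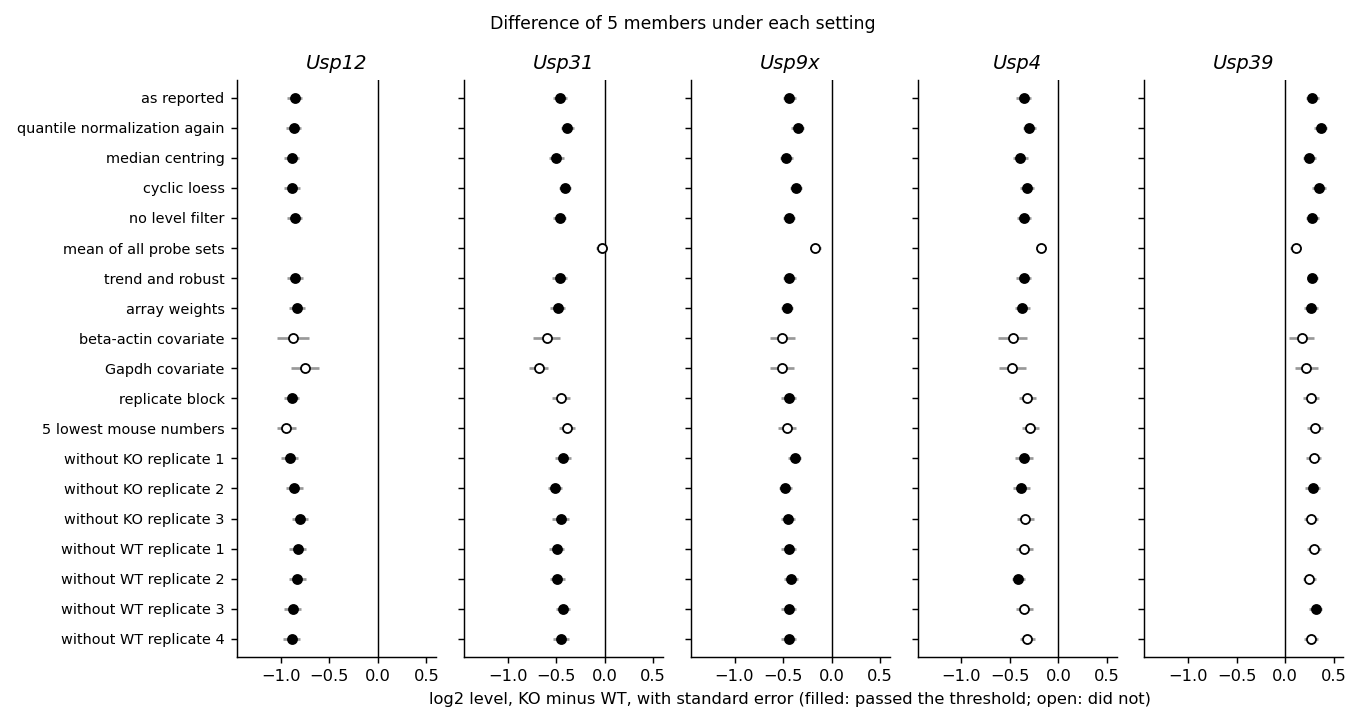
Log2 difference, KO minus WT, of the 5 called USP genes under each setting of the analysis, with standard errors; filled points passed the adjusted p threshold and open points did not. Usp12 stays between -0.94 and -0.75 and has no point for the mean of all probe sets, where it was not tested, while Usp31 moves to -0.03 there.

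Promoter windows of 300 bases were held for 36 of the 48 members. Hexamers with the core that GATA factors bind were searched on both strands: AGATAA and its variant AGATAG, then TGATAA and its variant TGATAG, which share their middle letters, so that 1 position can match no more than 1 of them. They were found in 2 of the 36, or 5.56%, against 29.8% of 32851 windows. The windows of the members are richer in CG dinucleotides, with a median of 27.5 against 7 over all windows, and in windows with at least 20 of them the hexamers were found in 9.40% of 8701 and in 0 of the 23 members. The 2 members with a hexamer are shown with it in capitals, in windows printed along the plus strand, chrX:20703659-20703958 and chr17:47630440-47630739. In Usp11 the capitals read CTATCT, which is AGATAG on the minus strand. Neither gene passed, and the windows of Usp12, Usp31 and Usp4 printed above hold none of the hexamers; a match is a description of letters and not a bound site.
Usp11: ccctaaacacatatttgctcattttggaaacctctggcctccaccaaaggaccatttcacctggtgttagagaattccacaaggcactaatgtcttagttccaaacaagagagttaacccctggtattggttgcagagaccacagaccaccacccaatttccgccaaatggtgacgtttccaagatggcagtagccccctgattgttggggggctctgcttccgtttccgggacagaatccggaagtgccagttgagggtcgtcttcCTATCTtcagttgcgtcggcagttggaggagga
Usp49: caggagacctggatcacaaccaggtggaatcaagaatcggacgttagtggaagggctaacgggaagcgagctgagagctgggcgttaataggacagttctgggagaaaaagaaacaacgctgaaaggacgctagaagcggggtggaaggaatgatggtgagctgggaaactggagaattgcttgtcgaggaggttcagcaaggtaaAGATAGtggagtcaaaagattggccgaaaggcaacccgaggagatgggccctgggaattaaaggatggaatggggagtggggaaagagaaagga

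Of 34 listed genes of other deubiquitinase families, 32 had a probe set and 30 were tested, of which 4 fell, 1 rose and 25 did not pass. The share that passed was 16.7% against 15.6% of all genes tested, and the median difference was -0.02 against -0.003. Cops5, the COP9 signalosome subunit that removes Nedd8 from cullins, fell most, from 7.28 to 7.47 in WT to 6.82 to 6.90 in KO (-0.54, limma adjusted p = 0.00582). Otud6b fell by 0.38 on the log2 scale (adjusted p = 0.00894) and the ataxin-3 gene Atxn3 by 0.40 (adjusted p = 0.0416). Josd2 fell by 0.30 (adjusted p = 0.0478) with 1 tied value between the groups. Zranb1, which trims atypical ubiquitin chains, rose by 0.32 (adjusted p = 0.0229), and Psmd14, the deubiquitinase of the proteasome lid, did not pass at 0.09 (adjusted p = 0.525).

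Of 34 listed partners, cofactors and substrates of USPs, 33 had a probe set and 32 were tested: 6 fell, 1 rose and 25 did not pass. The share that passed was 21.9% against 15.6% of all genes tested, and the median difference was -0.10 against -0.003; the difference in share was not tested. Psmd2, the proteasome base subunit of the particle that Usp14 joins, fell by 0.43 (9.49 to 9.58 in KO, 9.92 to 10.03 in WT, adjusted p = 0.00684). Stat2, the scaffold for Usp18 at the interferon receptor, fell by 0.36 (adjusted p = 0.0249), Pcna by 0.36 (adjusted p = 0.0282), the ubiquitin ligase subunit Fbxw7 by 0.35 (adjusted p = 0.0426) and Stam, the endosomal partner of Usp8, by 0.32 (adjusted p = 0.0276). Pink1, the mitochondrial kinase whose pathway Usp30 opposes, rose by 0.35 at 1441937_s_at (adjusted p = 0.0214) and differed by 0.01 at 1451148_at. The further probe sets of the genes named from these lists were mixed: those of Zranb1 differed by 0.16 and 0.27 and that of Fbxw7 by -0.22, while those of Atxn3, Cops5, Psmd2 and Stat2 were dim and differed by 0.04 to 0.10, and the other bright probe set of Stam differed by -0.01. Of the 12 genes of these lists that passed, 3 (Cops5, Otud6b and Psmd2) passed whichever array was left out. The ubiquitin precursor genes and Uba1 had no single-gene probe set and were not analysed here. Of 9 genes listed, 4 had such a probe set: Uba6, which activates ubiquitin, Uba7, which activates ISG15, and Uba3 and Nae1, which together activate Nedd8. Of these 4, 0 passed the limma threshold, with 2 under an unadjusted p of 0.05, beside 4622 of all 13285 genes tested.

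Markers of other cell types moved beside these values. Of 27 marker genes tested, 4 fell and 1 rose, 18.5% against 15.6% of all genes. The genes that fell were the endothelial Pecam1 (-1.22, limma adjusted p = 0.00679), the mesothelial Upk3b (-1.91, adjusted p = 0.0191) and Msln (-0.93, adjusted p = 0.0271), and the fibroblast gene Dcn (-0.46, adjusted p = 0.0166). At its other bright probe set, 1434237_at, Upk3b differed by -0.52 with overlap (limma adjusted p = 0.15 over all probe sets). Col1a1, the other fibroblast marker, overlapped between the groups and did not pass (-0.003, limma adjusted p = 0.988). The dim Dcn probe set 1441506_at differed by 0.24, with a tied value between the groups. The platelet chemokine gene Ppbp rose by 0.81 (adjusted p = 0.00935). Pf4, the other platelet marker, differed by 0.55 with overlap and did not pass (limma adjusted p = 0.0677). The red cell genes summed with them were Alas2 (-0.29) and Hba-a1, which lay below the level filter. Cdh5, the other endothelial marker, overlapped between the groups and did not pass (-0.15, adjusted p = 0.221), so the summed log2 level of the pair, 17.67 to 18.29 in KO and 19.01 to 19.64 in WT, differed mainly through Pecam1. At their brightest probe sets, the 2 mesothelial markers summed to 11.66 to 13.51 in KO and 14.12 to 16.26 in WT, without overlap. The other sums overlapped, at 71.09 to 73.61 and 73.32 to 74.16 for the 7 lung epithelial markers, 19.79 to 20.33 and 20.26 to 20.99 for fibroblasts, 34.81 to 35.27 and 33.42 to 35.52 for platelets and red cells, 21.21 to 21.79 and 21.34 to 21.77 for smooth muscle, 55.79 to 59.35 and 56.39 to 58.64 for leukocytes, and 30.36 to 32.27 and 30.23 to 33.13 for tissues next to the lung. Within the epithelial sum, Sftpb read 10.15 to 11.32 in KO and 11.51 to 11.72 in WT (-0.74, limma adjusted p = 0.0687). Sftpc also lay lower on every KO array (-0.12, limma adjusted p = 0.158), and neither passed. The other epithelial markers overlapped between the groups. The part of these markers in the USP differences was not tested.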

How the data were processed

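Left lungs of 3 Gata5 KO and 4 WT mice were profiled on 1 array each. The authors deposited log2 levels for 45101 probe sets, which were used unchanged. Per the submitters' processing notes the tools were RMA, MAS5 and Affymetrix Expression Console; their versions and roles, and which of them gave these values, are not stated there, and the log base was read from the range of the values. For arrays, their number limits the precision. Gene names come from the platform annotation: 34945 probe sets have 1 gene, 932 several and 9160 none, and only the first were used, which leaves out 2 probe sets that a USP shares with another gene.

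1 probe set stands for a gene, the brightest on average. Genes at or above the 40th percentile of probe set means (log2 level 5.47) were fitted on genotype alone with limma (version 3.58.1, R 4.3.3; lmFit, then eBayes), with Benjamini-Hochberg adjustment over 13285 genes and adjusted p under 0.05 as the threshold. The fit was tested on simulated data. Intervals are at 95%. A fold is 2 raised to the size of the log2 difference. Groups that share a tied value are counted as overlapping. Promoter windows are from RefSeq tables (GRCm38.p6) and were matched by symbol. Plots used Python 3.11.15 and matplotlib 3.10.9.

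The members and lists were chosen with earlier results of these data known. Values per array are given for Usp12, Usp1, Usp46, Usp9x and Usp9y, for further members called without overlap, and for the 4 uncalled members with the largest change; other probe sets of these are given too. Genes of the other lists were named where called, up to 6 per list, with Wdr48, Wdr20, Psmd14 and Gata5. Further members and probe sets were named after their values were seen. Alternatives covered normalization, the level filter, the probe set, the variance model, array weights, control indices, the replicate number, the 5 lowest mouse numbers and each array in turn.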

Additional observations from a re-analysis of the deposited data

Results flagged for a closer look

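Usp9x on WT replicate 2 read 9.99, while the other 3 WT arrays read 9.90 to 9.91. The gap to the nearest array is 0.889 of the range of the 4 WT arrays, above Dixon's 95% critical value for 4 samples. This was the only flag among 15 genes examined, and chance flags about 1 in 20 groups.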

How the results depend on the processing

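Among the 7 fits that leave out 1 array, lower calls of USP genes ranged from 3 to 4, higher calls from 0 to 1, the median difference of all members from -0.04 to 0.01, calls among other deubiquitinases from 2 to 4, among partners from 1 to 8 and among ubiquitin and E1 genes from 0 to 0; calls over all genes fell from 2069 to as few as 884, without WT replicate 4. A further quantile normalization gave 4 higher calls, a median of 0.034 and 3 other deubiquitinases, and cyclic loess gave 2 higher calls and a median of 0.011. The mean of all probe sets gave 3 partners and 1 ubiquitin or E1 gene. With the beta-actin index as a covariate there were 0 lower and 0 higher USP calls, a median of -0.094, 0 other deubiquitinases and 0 partners; with the Gapdh index there were 0 and 0, a median of -0.10, 0 and 0. The limma fits called 0 and 5 of all genes there, with 2204 and 2726 genes and 10 and 8 members under an unadjusted p of 0.05. Each covariate is partly confounded with genotype, and the cause was not tested. The 5 lowest mouse numbers keep every KO array and leave out WT replicates 3 and 4, the second of them the array with high Xist. With these fewer arrays there were 0 lower, 0 higher, 0 other deubiquitinases and 0 partners. Of all genes 0 were called, with 2793 genes under an unadjusted p of 0.05 and 6 such members. The replicate numbers do not pair the arrays (correlations of deviations 0.0033, -0.042 and 0.035); with the replicate block there were 2 lower and 0 higher USP calls, 1 other deubiquitinase and 0 partners, with 371 of all genes. Every probe set tested on its own, added after seeing the data, gave 11 members lower and 2 higher at any of their probe sets, without a matching count over all genes. Usp46 turned to 0.015 under quantile normalization, and Usp20 to 0.322 and 0.253 with the beta-actin and Gapdh indices. Median centring, no level filter, the trended robust variance and array weights kept every USP call count within 1.5 times of the main one. The mean of all probe sets gave no value for Usp12, which fell under the level filter. Signal near background limits Usp20, Usp9y and the unused Usp12 probe sets.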
